A study of Mus musculus with 6 samples.

Results

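The genes that receive interferon signals and pass them to the nucleus were followed in cultured keratinocytes with and without DNMT1. The group of 9 receptor and transducer genes was chosen by name: the receptor chains Ifnar1, Ifnar2, Ifnlr1, Ifngr1 and Ifngr2, the kinase Jak1, and the transcription factors Stat2, Irf9 and Irf7. These 9 genes were all present among the 43629 genes of the count table and all 9 were among the 16829 genes that passed the filter on low counts. The study deleted Dnmt1 in mouse epidermis with a Keratin 5-Cre transgene (K5-Cre). It compared keratinocytes of 3 Dnmt1Δ/Δep mice (K5-Cre, Dnmt1 f/f) with those of 3 control mice, which the labels give only as control or, in the sample titles, as wt. The study's text names Dnmt1 f/f, Dnmt1 f/+ and, for survival, also Dnmt1Δ/+ep mice as controls in its other experiments. The exact genotype of the 3 control mice is not given in the sources used here. All mice were female, on a mixed genetic background that includes C57BL/6J. Epidermis was taken at postnatal day 3 (P3), and its keratinocytes were cultured for 5 days in serum-containing keratinocyte medium on coated dishes before poly(A) RNA was sequenced. The labels list no added interferon. In skin sections the study found DNMT1 lost from every epidermal layer and from hair follicles, while non-epithelial cells of the dermis kept it. Whether K5-Cre acted in other cell types that these cultures may hold was not measured. The question that the comparison serves is whether the innate immune response to loss of DNMT1 arises in keratinocytes themselves.

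Interferons are secreted proteins that bind receptors made of different chains: IFNAR1 and IFNAR2 for type I interferons, IFNLR1 with IL10RB for type III, and IFNGR1 with IFNGR2 for interferon gamma. Binding activates Janus kinases, which phosphorylate STAT proteins. After type I and type III interferon, STAT2 joins the DNA-binding protein IRF9 in the complex ISGF3, which occupies interferon-stimulated response elements and switches on antiviral genes. IRF7 is itself an interferon target in many cells and drives transcription of the type I interferon genes. Epithelial cells such as keratinocytes respond to all 3 types.

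The libraries held 53433121 to 115526598 gene reads. Dnmt1 itself ranged from 324 to 394 counts per 1000000 (CPM) in control libraries and from 49.7 to 54.3 CPM in those labelled Dnmt1Δ/Δep (log2 fold change -2.83), so its transcript followed the labels. Libraries with the same replicate number shared a sequencing lane. A gene counted as upregulated or downregulated if its adjusted p in edgeR's quasi-likelihood test was at most 0.05 and its level changed at least 2-fold. By this rule 1014 genes (6.03%) rose and 66 (0.392%) fell of the 16829 tested. The adjusted p alone was passed by 7.71% of the genes with higher and by 1.66% with lower levels. In 18.2% of the genes all Dnmt1Δ/Δep libraries lay above all control libraries, and in 11.7% they lay below.

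None of the 9 receptor and transducer genes was called in either direction with edgeR, and none passed the adjusted p alone. With the replicate number as a block, which follows the shared lanes, 1 of them (Irf9, adjusted p = 0.0136, edgeR) passed the adjusted p alone and 0 were called. Without adjustment 1 of them, Irf9, had a p below the threshold in edgeR, with a higher level. Over all genes tested 15.8% were higher and 7.79% lower by that unadjusted rule. DESeq2 also called 0 of the 9, beside 6.94% of its genes called up and 0.606% called down. Their log2 fold changes, Dnmt1Δ/Δep over control, ran from -0.23 to 0.73 with a median of 0.10, beside a median of -0.00 over all genes tested. For 7 of the 9 genes the 95% interval of the change lay within a fold change of 2 in either direction. The exceptions were Irf9 and Irf7, whose intervals reached beyond 2-fold. A p above the threshold does not show that a gene was unchanged, so the intervals are given with each gene. These are bulk cultures, in which fewer cells of a type and less RNA per cell cannot be told apart.

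**Figure D1:**
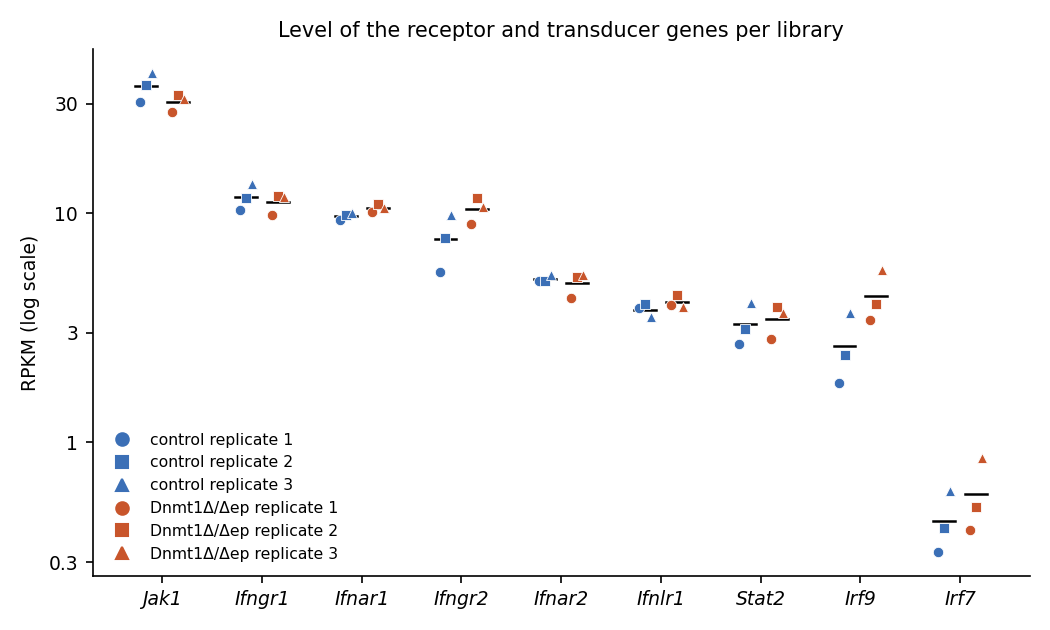
Level of each gene in reads per kilobase of exon and per 1000000 gene reads (RPKM, log axis) in each of the 6 libraries. Blue points are control and orange points Dnmt1Δ/Δep libraries, the point shape gives the replicate number, and black lines are group means. Jak1 lies highest and Irf7 lowest in both groups, and the points of the 2 groups overlap for every gene but Ifnar1.

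Levels per exon length (RPKM, CPM per kilobase of exon) placed the genes in an order. In control keratinocytes Jak1 was highest at 35.9 RPKM (30.5 to 40.8 over 3 libraries). The receptor chains followed, with Ifngr1 at 11.8 RPKM, Ifnar1 at 9.74, Ifngr2 at 7.70, Ifnar2 at 5.16 and Ifnlr1 at 3.79. Stat2 had 3.29 RPKM, Irf9 had 2.62 and Irf7 had 0.455. Neighbours in this order did not overlap over the libraries except Ifnar1 and Ifngr2, Ifnlr1 and Stat2, and Stat2 and Irf9. In Dnmt1Δ/Δep keratinocytes Jak1 was again highest at 30.6 RPKM and Irf7 lowest at 0.596. Irf9 stood at 4.35 RPKM, ahead of Ifnlr1 (4.08) and Stat2 (3.46) in mean level, with ranges that overlapped between Ifnar2 and Irf9, Irf9 and Ifnlr1, and Ifnlr1 and Stat2. Ifngr1, Ifnar1 and Ifngr2 lay together between 10.4 and 11.2 RPKM with overlapping ranges. The order depends on the length used: per kilobase of coding sequence only 4 of the 9 genes held the same place in the control order. All 5 receptor chains were thus transcribed in every library of both groups.

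DNMT1 copies methylation of CpG dinucleotides after replication, and ISGF3 binds a known sequence, so the promoters of the 9 genes were read for both. Windows of 300 bases, from 250 before to 50 after the transcription start, came from RefSeq (GRCm38.p6). All 9 genes matched, with 10 windows, since Irf9 has a pair of starts. The core of the interferon-stimulated response element (GAAANNGAAA, either strand) was found in 1 of them, that of Stat2 (chr10:128270248-128270547, plus strand). It is shown because it is the only member promoter with such a match, which is in capitals, begins at position -222 from the transcription start and reads as the core on the other strand.
Stat2: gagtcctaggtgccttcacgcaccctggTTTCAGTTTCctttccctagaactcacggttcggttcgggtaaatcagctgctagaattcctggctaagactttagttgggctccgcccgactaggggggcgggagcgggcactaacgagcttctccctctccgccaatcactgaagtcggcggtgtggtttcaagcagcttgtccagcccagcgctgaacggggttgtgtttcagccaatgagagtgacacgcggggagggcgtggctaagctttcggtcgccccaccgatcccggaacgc
The core was held by 3.44% of all 32851 windows, by 14 of 33 windows (42.4%) of the type I and III target genes and by 10 of 18 (55.6%) of the interferon gamma target genes. The gamma-activated site TTCNNNGAA, which reads the same on either strand, was found in the windows of Ifnar1 and Ifnar2 and in 8.30% of all windows. A match is no measurement of binding, and its absence from a window says only that these letters are not there.

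The windows of the receptor genes, Jak1 and Stat2 held 14 (Ifngr1) to 31 (Ifngr2) CpG each. Those of Irf9 held 9 and 1 and that of Irf7 held 7, beside a median of 19 over the windows of tested genes and of 7 over all windows. Ifngr1 (14), Ifnar2 (18) and Ifnlr1 (18) lay below the median of tested genes. Observed over expected CpG was 0.600 to 0.947 in the windows of the receptor genes, Jak1 and Stat2, and 0.392 and 0.048 in those of Irf9 and 0.310 in that of Irf7, where the median of tested genes was 0.724. The window with the most CpG, that of Ifngr2 (chr16:91546809-91547108, plus strand), and the first window of Irf9 (chr14:55603735-55604034, plus strand) are set side by side to show this, with each CpG in capitals. They were picked after the values were seen. Both windows of Irf9 lie inside its annotated gene, which starts at 55603571 (GENCODE M21), so the bases before that start were not read.
Ifngr2: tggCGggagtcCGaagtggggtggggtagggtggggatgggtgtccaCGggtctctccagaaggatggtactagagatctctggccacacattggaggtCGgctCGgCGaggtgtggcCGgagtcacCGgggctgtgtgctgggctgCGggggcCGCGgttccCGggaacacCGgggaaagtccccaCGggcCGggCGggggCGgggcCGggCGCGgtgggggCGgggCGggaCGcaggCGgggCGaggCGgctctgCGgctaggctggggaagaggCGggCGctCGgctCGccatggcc
Irf9: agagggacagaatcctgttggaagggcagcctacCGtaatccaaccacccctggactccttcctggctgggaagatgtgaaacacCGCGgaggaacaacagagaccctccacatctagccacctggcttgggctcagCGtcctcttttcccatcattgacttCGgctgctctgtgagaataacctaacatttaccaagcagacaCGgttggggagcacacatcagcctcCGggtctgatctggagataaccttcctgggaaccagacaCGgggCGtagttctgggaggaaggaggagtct
Methylation was not measured in these libraries, and the relation of CpG content to the changes was not tested.

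The type I receptor was measured through both of its chains. Ifnar1 (ENSMUSG00000022967), the chain that carries the signal together with IFNAR2, had 55.4, 58.4 and 59.7 CPM in control replicates 1, 2 and 3 and 60.2, 65.0 and 62.8 CPM in the Dnmt1Δ/Δep replicates. All Dnmt1Δ/Δep libraries lay above all control libraries, by a small margin. The difference was 0.12 on the log2 scale (SE 0.09, 95% interval -0.09 to 0.32) with an adjusted p of 0.506 in edgeR. Ifnar1 was the only gene of the 9 whose groups did not overlap, where 18.2% of all genes tested lay above in this way, and its change stood at percentile 62.6 of all genes. Without Dnmt1Δ/Δep replicate 2 the difference was 0.04.

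Ifnar2 (ENSMUSG00000022971), the high-affinity binding chain, had 16.9, 16.8 and 17.9 CPM in control and 14.2, 17.5 and 17.9 CPM in Dnmt1Δ/Δep libraries. The groups overlapped, and the lowest value belonged to Dnmt1Δ/Δep replicate 1. Its log2 fold change was -0.05 (SE 0.13, 95% interval -0.36 to 0.25, adjusted p = 0.868, edgeR), and without that library the sign turned, to 0.04. Of its exon bases, 9.46% are shared with the annotated gene Gm21970 on the same strand, which limits how reads could be assigned.

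Ifnlr1 (ENSMUSG00000062157) encodes the chain specific to type III interferons, whose action is largely limited to epithelia. Its values were 16.1, 16.7 and 14.8 CPM in control and 16.6, 18.4 and 16.2 CPM in Dnmt1Δ/Δep libraries. The groups overlapped, with a log2 fold change of 0.10 (SE 0.12, 95% interval -0.17 to 0.38, adjusted p = 0.680, edgeR). Without Dnmt1Δ/Δep replicate 2 the difference was -0.01. Its partner Il10rb, shared with the IL-10 family and named after its values were seen, had 18.4 to 19.3 CPM in control and 21.4 to 26.5 CPM in Dnmt1Δ/Δep libraries. These ranges did not overlap, but the change of 0.33 on the log2 scale had an adjusted p of 0.143 in edgeR. Of the exon bases of Il10rb, 14.9% are shared with Gm21970, which limits its levels and ratios in the same way.

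The interferon gamma receptor showed chains with different patterns. Ifngr1 (ENSMUSG00000020009), the ligand-binding chain, had 29.3, 33.2 and 38.1 CPM in control and 28.0, 33.8 and 33.6 CPM in Dnmt1Δ/Δep libraries. The Dnmt1Δ/Δep values lay within or just under the control range. The log2 fold change was -0.08 (SE 0.14, 95% interval -0.39 to 0.24, adjusted p = 0.823, edgeR), with values of 0.01 without Dnmt1Δ/Δep replicate 1 and 0.02 without control replicate 3.

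Ifngr2 (ENSMUSG00000022965), the accessory chain needed for signalling, had 20.8, 29.3 and 37.0 CPM in control libraries. The Dnmt1Δ/Δep libraries had 33.9, 43.7 and 39.9 CPM. Only control replicate 3 reached into the Dnmt1Δ/Δep range, and each Dnmt1Δ/Δep library lay above the control library of the same number. The log2 fold change of 0.43 (SE 0.21, 95% interval -0.06 to 0.93) had an adjusted p of 0.275 in edgeR. It was 0.24 without control replicate 1, 0.29 without Dnmt1Δ/Δep replicate 2 and 0.64 without control replicate 3. With all libraries it was 1.35-fold in linear terms and stood at percentile 79.0 of all genes tested. The control libraries themselves varied by 27.9% (coefficient of variation).

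Ifnar2, Il10rb, Ifnar1 and Ifngr2 are neighbours on mouse chromosome 16 (GENCODE M21, GRCm38), and lie in that order on the plus strand within 193 kb, from 91372783 to 91565623. Ifnar2 ends 574 bp before Il10rb starts. The log2 fold changes along this stretch were -0.05, 0.33, 0.12 and 0.43, none of them past the test. Ifngr1 lies on chromosome 10 (19591949 to 19610229) and Ifnlr1 on chromosome 4 (135686287 to 135708181).

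Jak1 (ENSMUSG00000028530, chromosome 4, 101152367 to 101265282, minus strand) encodes the kinase that all 3 interferon receptor types share. It had 220, 263 and 295 CPM in the control group, set against 199, 237 and 228 CPM without DNMT1. The ranges overlapped, although each Dnmt1Δ/Δep library lay below the control library of its number. At -0.23 (SE 0.13, 95% interval -0.54 to 0.08, adjusted p = 0.359, edgeR) its log2 fold change was the lowest of the 9, at percentile 20.3 of all genes. Without control replicate 3 it was -0.13.

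**Figure D2:**
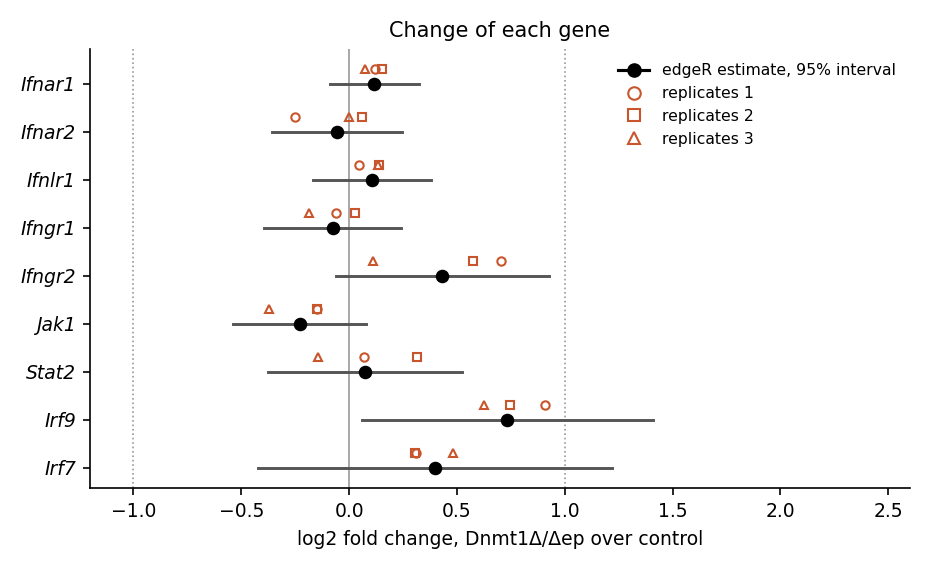
Log2 fold change of each gene, Dnmt1Δ/Δep over control, with the edgeR estimate (black point) and its 95% interval (line), and the log2 ratio of CPM between libraries of the same replicate number (orange open symbols). Dotted lines mark a 2-fold change. The interval of Irf9 (0.06 to 1.41) is the only one that does not reach 0, and those of Irf9 and Irf7 cross the 2-fold line.

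Stat2 (ENSMUSG00000040033, chromosome 10, 128270559 to 128292849) encodes the STAT of ISGF3 that carries its transactivation domain. It had 15.9, 18.6 and 24.0 CPM in control and 16.7, 23.1 and 21.7 CPM in Dnmt1Δ/Δep libraries. This is the gene whose promoter window holds the response element core shown above. The Dnmt1Δ/Δep values lay inside the control range, and the difference was 0.07 on the log2 scale (SE 0.19, 95% interval -0.38 to 0.52, adjusted p = 0.882, edgeR). It changed sign when control replicate 1 (-0.06) or Dnmt1Δ/Δep replicate 2 (-0.07) was left out.

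Irf9 (ENSMUSG00000002325, chromosome 14, 55603571 to 55610030), the DNA-binding subunit of ISGF3, had the largest difference of the 9. Its values were 9.77, 12.9 and 19.7 CPM in control and 18.3, 21.6 and 30.3 CPM in Dnmt1Δ/Δep libraries. Control replicate 3 lay above Dnmt1Δ/Δep replicate 1, so the groups overlapped, while within each replicate number the Dnmt1Δ/Δep library was higher, by 0.91, 0.75 and 0.62 on the log2 scale. The log2 fold change was 0.73 (SE 0.29, 95% interval 0.06 to 1.41), or 1.66-fold. Irf9 did not pass the test across all genes, with an adjusted p of 0.177 in edgeR (0.0366 before adjustment). The replicate numbers pair the libraries, which shared lanes, and with the replicate number as a block Irf9 passed the adjusted p (0.0136, edgeR) at a log2 fold change of 0.76, still under the 2-fold threshold. In that fit 10% of all genes tested passed the adjusted p with higher levels. Leaving out single libraries moved the estimate both ways. Without control replicate 3 the log2 fold change was 1.04 with an adjusted p of 0.059, and it was 0.50 (adjusted p = 0.440, edgeR) without Dnmt1Δ/Δep replicate 3.

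Irf7 (ENSMUSG00000025498, chromosome 7, 141262706 to 141266481, minus strand) was the least abundant of the 9. Control libraries had 1.26, 1.59 and 2.31 CPM and Dnmt1Δ/Δep libraries 1.56, 1.97 and 3.22 CPM, which rest on 93 to 380 counts per library. The ranges overlapped widely. The log2 fold change was 0.40 (SE 0.35, 95% interval -0.42 to 1.22, adjusted p = 0.579, edgeR), with differences of 0.31, 0.31 and 0.48 between libraries of the same number. Single libraries moved this estimate widely, to 0.04 without Dnmt1Δ/Δep replicate 3 and 0.22 without control replicate 1, and to 0.60 when Dnmt1Δ/Δep replicate 1 and 0.66 when control replicate 3 was left out. The interval leaves room for a rise of over 2-fold as well as for a fall. A small part of the exon bases of Irf9 (2.28%, Rnf31) and Irf7 (1.19%, Phrf1) is shared with neighbouring genes.

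**Figure D3:**
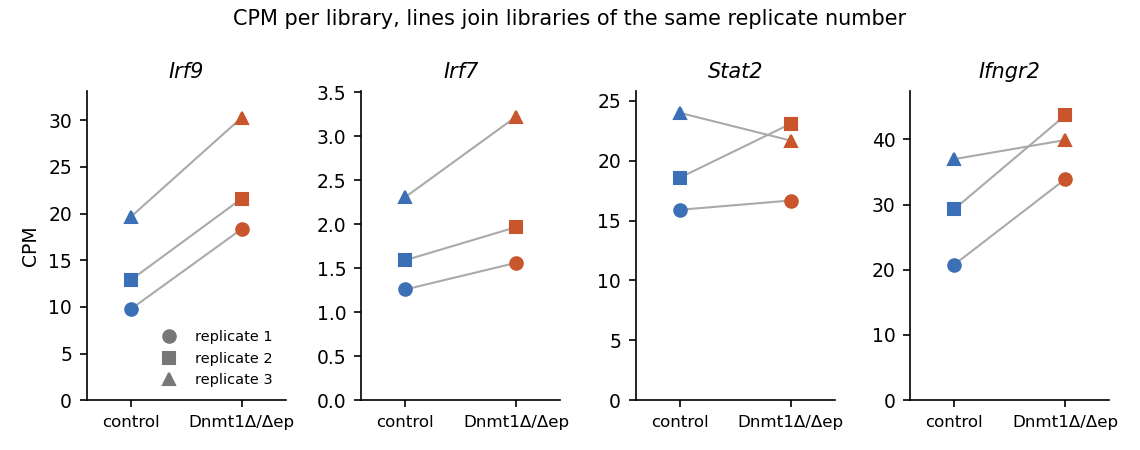
CPM of Irf9, Irf7, Stat2 and Ifngr2 in each library, with lines joining the control and Dnmt1Δ/Δep libraries of the same replicate number. For Irf9 and Irf7 replicate 3 is highest and replicate 1 lowest in both groups, and every line rises. For Stat2 the line of replicate 3 falls.

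The spread within groups was itself shared between genes. Irf9 deviated from its group mean (mean of log2 CPM) by -0.47, -0.07 and 0.54 in control replicates 1, 2 and 3 and by -0.32, -0.08 and 0.40 in the Dnmt1Δ/Δep replicates. Irf7 did so by -0.40, -0.07 and 0.47 and by -0.46, -0.13 and 0.59. In both groups the library with number 3 was highest and that with number 1 lowest for these genes. The median deviation of 34 type I and III interferon target genes with a count in every library was likewise highest in replicate 3, at 0.67 in control and 0.49 in Dnmt1Δ/Δep libraries. It was -0.40 and -0.14 in replicate 1 and -0.07 and -0.30 in replicate 2. Ifnar1 and Ifnlr1, in contrast, varied by at most 0.11 from their group means. Over the 6 libraries the genes most like Irf9 in log2 CPM, of 12454 compared, were Gm6768 (Pearson's r = 0.995), Igtp (0.992) and Lca5 (0.991). This likeness is a description over 6 libraries that share 3 lanes. Igtp, an interferon-inducible GTPase, had mean levels of 3.06 CPM (control) and 5.98 CPM (Dnmt1Δ/Δep).

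Ratios between partners of the same complex were taken within each library, so that depth cancels. Irf9 over Irf7, which are not partners of a complex, was added. All were chosen after the single values were seen. Ifnar1 over Ifnar2 was 1.84 to 1.95 in control and 1.97 to 2.37 in Dnmt1Δ/Δep libraries on the RPKM scale. Ifngr1 over Ifngr2 was 1.36 to 1.86 in control and 1.02 to 1.11 in Dnmt1Δ/Δep libraries. Per kilobase of coding sequence the same ratio was 0.718 to 0.980 and 0.539 to 0.586, so which chain was the more abundant depends on the length used. For the type III receptor, Il10rb over Ifnlr1 was 1.21 to 1.43 and 1.45 to 1.58. Within ISGF3, Stat2 over Irf9 was 1.11 to 1.48 in control and 0.651 to 0.971 in Dnmt1Δ/Δep libraries. Per kilobase of coding sequence it was 0.653 to 0.871 and 0.383 to 0.571, below 1 in both groups. Irf9 over Irf7 was 5.44 to 5.97 and 6.59 to 8.24. In all 5 ratios the groups did not overlap. For ratios of neighbouring genes in identifier order this held in 31.3%, in either direction. The ratios are a description, with no test, and their absolute size depends on the exon lengths used.

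**Figure D4:**
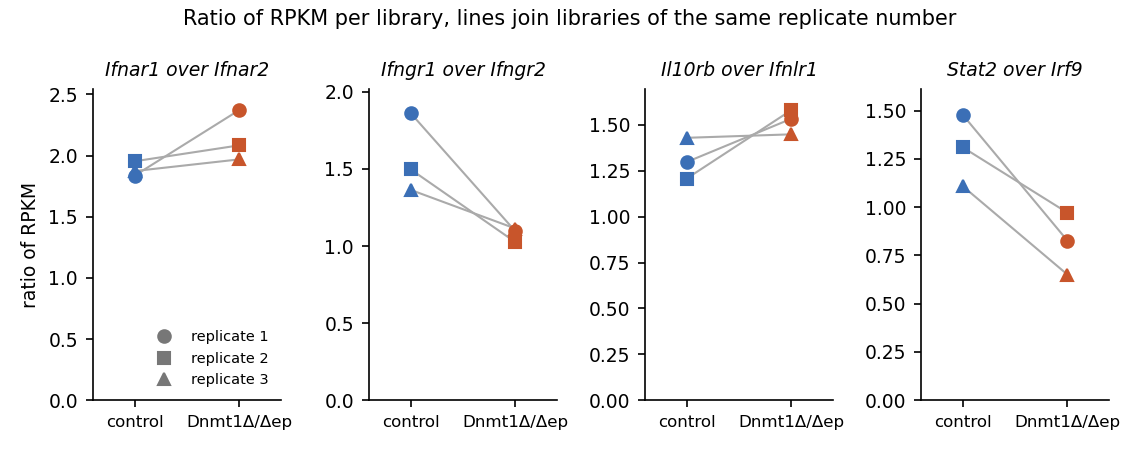
Ratio of RPKM between partner genes in each library, with lines joining libraries of the same replicate number. Ifngr1 over Ifngr2 lies at 1.36 to 1.86 in control and at 1.02 to 1.11 in Dnmt1Δ/Δep libraries, and Stat2 over Irf9 at 1.11 to 1.48 and 0.651 to 0.971. Per coding length both of these ratios lie below 1 in all libraries. Their position above 1, for Ifngr1 over Ifngr2 in both groups and for Stat2 over Irf9 in control libraries, holds for exon length only.

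The wider pathway was described through lists of genes with known roles. These lists were chosen with earlier results of these data known, so their counts are a description and cannot be weighed against the share over all genes. Of 10 further receptor, kinase and STAT genes, 9 were tested and 0 were called with edgeR or DESeq2, while 1 was higher at an unadjusted p of 0.05, as were 15.8% of all genes tested. Their median log2 fold change was -0.10. Stat3, which serves many cytokines, had 260 CPM in control against 249 CPM in Dnmt1Δ/Δep libraries on average. Stat6, the mediator of IL-4 and IL-13 signals, had 169 and 151 CPM, and Stat5b had 41.1 and 35.5 CPM. The log2 fold changes of the 9 tested genes lay between -0.29 and 0.33, a range that also holds those of Jak1 and Stat2.

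Among 7 other interferon regulatory factors, 2 were upregulated, beside 6.03% of all genes. Irf1, a direct target of interferon gamma, rose from 4.25, 3.86 and 5.57 CPM in control to 16.6, 18.3 and 18.4 CPM in Dnmt1Δ/Δep libraries. The groups lay far apart, with a log2 fold change of 1.96 (SE 0.17, adjusted p = 0.00102, edgeR), and the call held whichever library was left out. Irf8, known from myeloid cells, rose from 0.0428 to 0.314 CPM (log2 fold change 2.89, adjusted p = 0.0114, edgeR), but was lost without control replicate 2 and at a minimum mean of 1 RPKM. Its control mean was near the floor, where 3 counts correspond to 0.0308 to 0.0558 CPM in control libraries. Irf3, the partner of IRF7 in inducing type I interferon, had 36.8 and 35.8 CPM, and Irf2 had 27.1 and 25.9 CPM. Irf4 (1.37 and 3.20 CPM), named after its values were seen, had an adjusted p of 0.137 in edgeR and was not called. It was called with the replicate block (adjusted p = 0.0496, edgeR), as were 6.97% of all genes upward, and with DESeq2 (adjusted p = 0.0322). In the same family, the estimates for Irf9 (0.73) and Irf7 (0.40) were smaller than that for Irf1 and did not pass, and the difference between them and Irf1 was not tested.

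Of 13 negative regulators of interferon signalling, 2 were upregulated and 0 downregulated, beside 6.03% and 0.392% of all genes, with a list median of -0.06. The count was 1 without control replicate 2 or any 1 of the Dnmt1Δ/Δep libraries, and 3 without control replicate 1. Socs2, a suppressor of cytokine signalling best known from the growth hormone receptor, rose from 4.13 to 14.0 CPM on average (log2 fold change 1.76, adjusted p = 0.00317, edgeR). Usp18, which removes ISG15 from proteins and also blocks the kinase site on IFNAR2, had 0.127, 0.462 and 0.782 CPM in control and 1.91, 3.25 and 5.64 CPM in Dnmt1Δ/Δep libraries. Its log2 fold change was 3.02 (SE 0.66, adjusted p = 0.0324, edgeR). The groups did not overlap, and replicate 3 was the highest in each, as for Irf9. This call was lost when control replicate 2 or any Dnmt1Δ/Δep library was left out. The phosphatases Ptpn1 (96.4 CPM in both groups) and Ptpn2 (58.8 and 50.2 CPM) and the SUMO ligase Pias2 (57.7 and 54.8 CPM) were not called.

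The ligands of these receptors were almost absent. Of 21 interferon genes, 15 had 0 counts in all libraries and none passed the filter. Their counts summed to 0, 2 and 2 in control and to 3, 2 and 7 in Dnmt1Δ/Δep libraries, where 3 counts correspond to between 0.0254 and 0.0558 CPM. A difference in ligand transcripts was not detectable at this depth. Of 12 adaptors and kinases upstream of IRF7, 0 were called with edgeR or DESeq2, and 1 was higher at an unadjusted p of 0.05, beside 15.8% of all genes. This was Ikbke, a kinase that phosphorylates IRF3 and IRF7, which also passed the adjusted p alone, with 25.2 and 46.6 CPM on average (log2 fold change 0.89, adjusted p = 0.0153, edgeR). The list had a median of -0.03, and its most abundant genes Irak1 (123 and 137 CPM), Chuk (98.8 and 99.8 CPM), Traf3 (86.6 and 94.9 CPM) and Traf6 (87.0 and 82.1 CPM) were not called.

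The genes downstream of the receptors differed in their counts from the 9 receptor and transducer genes. Of 38 type I and III interferon target genes 36 were tested, 22 rose and 0 fell, beside 6.03% and 0.392% of all genes, with a median log2 fold change of 1.86. They included Isg15, a ubiquitin-like modifier (0.632 and 4.85 CPM on average), Oas3, which activates RNase L (0.539 and 5.06 CPM), Bst2, which tethers virions to the cell (6.21 and 18.5 CPM), and Rsad2 (0.253 and 2.46 CPM). The others called were Ifit1, Oas1a, Oas1g, Oas2, Oasl1, Oasl2, Ifi44, Xaf1, Rtp4, Ifi27, Dhx58, Parp14, Samd9l, Trim30a, Sp100, Lgals3bp, Isg20 and Uba7. Reads of close copies such as Oas1a and Oas1g are uncertain in their assignment. None of the 36 fell at an unadjusted p of 0.05, and DESeq2 also called 0 falls. Of the most abundant genes of the list, Trim25 (56.6 and 88.7 CPM) passed the adjusted p but not the fold threshold, and Ddx58 (66.0 and 85.9 CPM) and Eif2ak2 (48.7 and 47.9 CPM) were not called. The count of 22 changed when single libraries were left out: it was 6 without control replicate 2, 8 without Dnmt1Δ/Δep replicate 3, 10 without Dnmt1Δ/Δep replicate 1 and 13 without Dnmt1Δ/Δep replicate 2. Over all genes the rises fell from 1014 to 559, 761, 591 and 682 in the same fits. The estimates of the 22 genes stayed positive in every left-out fit, the lowest being 0.97 (Isg20). The 6 genes called whichever library was left out were Isg15, Oas3, Oasl1, Bst2, Sp100 and Uba7. Levels were low, and with a minimum mean of 1 RPKM in either group 6 genes were called. The replicate block gave 24 calls, and DESeq2 and the fit with no filter gave 25 each.

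Of 24 interferon gamma target genes 16 were tested, 9 rose and 0 fell, beside 6.03% and 0.392% of all genes, with a median of 2.11. With a minimum mean of 1 RPKM in either group 5 were called, and 6 without control replicate 2, whereas the replicate block, DESeq2 and the fit with no filter each gave 12. Nlrc5, the activator of MHC class I genes, rose from 0.666, 1.31 and 2.25 CPM to 33.4, 27.2 and 43.7 CPM (log2 fold change 4.65, SE 0.44, adjusted p = 0.00137, edgeR). Psmb8 (0.562 and 7.29 CPM on average) and Psmb9 (0.763 and 3.64 CPM), subunits of the immunoproteasome, the GTPases Gbp2, Gbp7, Iigp1 and Irgm1, the chemokine Cxcl10 and Cd274 were the others. Of these, Gbp2, Irgm1, Cd274, Nlrc5, Psmb8 and Psmb9 were called whichever library was left out. Tap1, a subunit of the transporter that carries peptides into the endoplasmic reticulum (40.8 and 69.0 CPM), passed the adjusted p alone, and Icam1 (104 and 119 CPM) and Psmb10 (10.8 and 10.1 CPM) were not called. A test of the difference between these lists and the 9 receptor and transducer genes was not made, and the lists were chosen with earlier results of these data known.

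**Figure D5:**
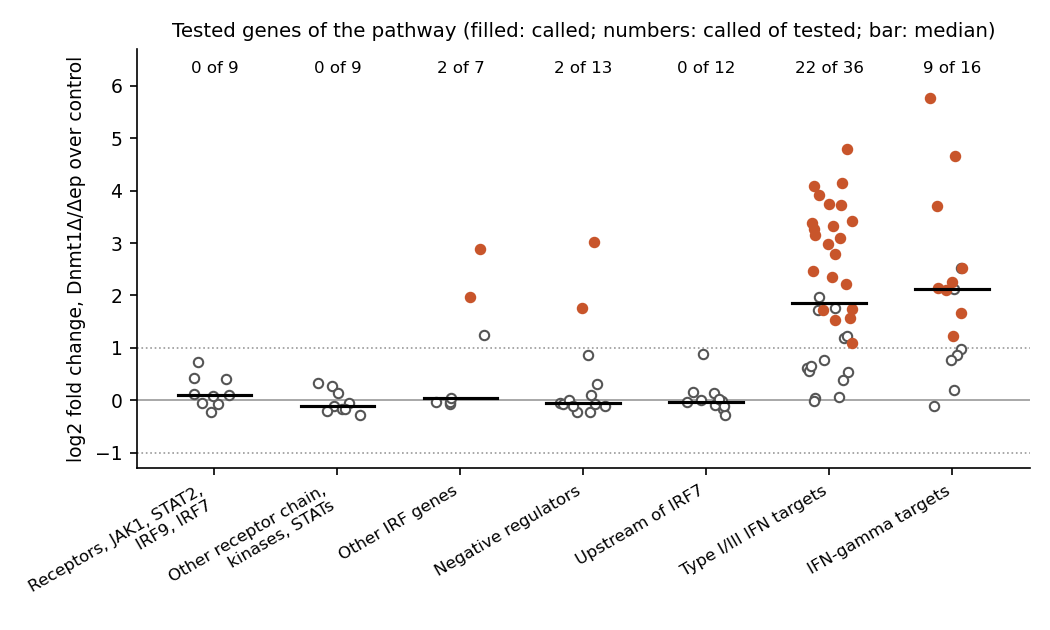
Log2 fold change (Dnmt1Δ/Δep over control) of each tested gene of the pathway by list. Filled points passed both the adjusted p and the 2-fold threshold (dotted lines), bars are medians, and numbers give called of tested. The 9 receptor and transducer genes and the further kinases and STATs have 0 calls, the type I and III target genes 22 of 36 and the interferon gamma target genes 9 of 16.

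Markers of the cultured cells were set beside these values. The 11 keratinocyte markers summed to 38810 to 42798 CPM in the control group, set against 29838 to 30704 CPM without DNMT1, with 0 called, 5 lower at an unadjusted p of 0.05 and 3 lower by adjusted p alone in edgeR (Krt5, Krt14 and Col17a1), beside 7.79% and 1.66% of all genes. The differentiation keratins Krt1 and Krt10 had the lowest estimates. Krt1 had 53.2, 356 and 530 CPM in control and 66.1, 59.2 and 65.5 CPM in Dnmt1Δ/Δep libraries (log2 fold change -2.30, adjusted p = 0.0846, edgeR), and Krt10 had 9.63, 32.1 and 29.7 against 10.6, 7.10 and 6.30 CPM (-1.58, adjusted p = 0.0695, edgeR). Replicate 1 overlapped between the groups for both, and DESeq2 called both lower (adjusted p = 0.0412 and 0.000889). Melanocyte markers were higher in sum without DNMT1, at 207 to 546 and 659 to 887 CPM, with 0 of 6 called and 4 higher at an unadjusted p of 0.05, beside 15.8% of all genes. With the replicate block 4 of these 6 passed the adjusted p and 2 (Dct and Tyrp1) were called, beside 10% and 6.97% of all genes. Those of macrophages, dendritic and Langerhans cells summed to 1.99 to 4.24 and 4.78 to 6.73 CPM with 2 of 4 tested genes called, beside 6.03% of all genes (Csf1r and Itgam, the latter with 68.7% of its exon bases in another gene). With the replicate block 1 of these calls, Itgam, remained. The defining genes Ptprc, Adgre1 and Cd207 had at most 12, 1 and 1 counts in any library. Of the MHC class II presentation genes on the same list, Cd74 and H2-Aa were low but higher in every Dnmt1Δ/Δep library than in any control library, while H2-Ab1 overlapped (130 to 172 and 124 to 315 counts). Cd74 had 0, 0 and 7 counts in control and 29, 14 and 43 in Dnmt1Δ/Δep libraries (adjusted p = 0.143, edgeR). H2-Aa, which did not pass the filter, had 0, 0 and 1 against 8, 5 and 19 counts and was called by DESeq2 (adjusted p = 0.0282). Endothelial markers summed to 5.29 to 17.3 and 14.5 to 22.1 CPM with 2 of 4 tested genes called (Pecam1 and Cdh5), again beside 6.03%. The most abundant of these markers, Kdr, had 6.81 and 6.11 CPM on average (log2 fold change -0.16, adjusted p = 0.926, edgeR). Plasmacytoid dendritic markers, most of whose sum was Tcf4 and Bcl11a, summed to 68.4 to 89.0 and 50.5 to 73.7 CPM, with Siglech at 0 in all libraries. T cell markers summed to 0.687 to 1.02 and 0.352 to 0.624 CPM, with Cd3g at 0 in all libraries. Fibroblast markers overlapped, at 12.2 to 28.0 and 12.0 to 58.8 CPM, and neutrophil and mast cell markers reached at most 0.0372 and 0.197 CPM. The part of these shifts in the values of Irf9, Irf7, Ifngr2 and the target genes was not tested.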

How the data were processed

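Gene expression was measured by poly(A) RNA sequencing in 6 keratinocyte cultures, each from a separate mouse (3 control, 3 Dnmt1Δ/Δep). According to the labels and methods cells were cultured for 5 days, whereas a figure legend of the study gives 72 h. The authors trimmed and filtered reads, aligned them with STAR and counted uniquely mapped reads per gene with HTSeq, and the deposited values are raw counts per Ensembl gene. The submitters' processing notes name GRCm38, while the methods name a human index for the alignment. Whether counting used strand is not given in the sources used here. Entries that name no gene (8.73% to 12.9% of all entries per library) were removed. The authors' comparison tables (log2 fold changes, p-values) and the repeat counts were not used.

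Counts were tested with edgeR 4.0.16 (R 4.3.3; quasi-likelihood test, TMM, filterByExpr with minimum counts of 10 and 15) over the whole table, with Benjamini-Hochberg adjustment over 16829 genes and calls required an adjusted p of at most 0.05 with a log2 change of at least 1 either way. The study states a 2-fold threshold and no block. CPM use TMM-scaled library sizes, and RPKM divide these by the exon union of GENCODE M21, which gave symbols and positions for 42462 of 43629 genes. The 95% intervals use the t distribution of the fit. DESeq2 1.42.0, RLE and upper-quartile factors, no filter, a filter at 1 RPKM, the replicate block and leaving out each library were alternatives. On simulated counts for the comparison over 16829 genes, edgeR called 179 of 200 changed genes (89.5%) with 6 false calls.

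Same-numbered libraries shared a lane, by the table's header, and their deviations from the group means correlated across genes (0.43, 0.28 and 0.30 for numbers 1, 2 and 3), so the numbers pair the libraries. No libraries held identical values. Named were the 9 genes, every called gene of each list and up to 4 others with high counts, which are not always the highest of their list. The 3 genes most like the gene with the smallest p, and Dnmt1, were named too. Named outside this rule, after their values were seen, are Il10rb, Irf4, Ikbke and the single marker genes. The 9 genes and all lists were chosen with earlier results of these data known. Some listed genes are counted but not reported by name.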

Additional observations from a re-analysis of the deposited data

How the results depend on the processing

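None of the 9 receptor and transducer genes was called under any alternative tested. Irf9 ranged in log2 fold change from 0.50 to 1.04 and in adjusted p from 0.0136 to 0.440, Ifnar1 from 0.04 to 0.14, Ifngr2 from 0.24 to 0.64, Jak1 from -0.34 to -0.13 and Irf7 from 0.04 to 0.66 (11 alternatives, since Irf7 was not tested at a minimum of 1 RPKM). Signs turned for Ifnar2 (0.042 without Dnmt1Δ/Δep replicate 1), Ifnlr1 (-0.0054 without Dnmt1Δ/Δep replicate 2), Ifngr1 (0.0078 without Dnmt1Δ/Δep replicate 1 and 0.024 without control replicate 3) and Stat2 (-0.055 without control replicate 1, and -0.074 when Dnmt1Δ/Δep replicate 2 was left out). Leaving out single libraries, Ifnar2 ranged from -0.15 to 0.042, Ifnlr1 from -0.0054 to 0.14, Ifngr1 from -0.17 to 0.024 and Stat2 from -0.074 to 0.25. With the replicate block, which follows the pairing of the libraries, 1 of the 9 genes (Irf9) passed the adjusted p alone, and this block changed no call among them. It moved no pathway list's count of calls by over 1.5 times. Among marker lists it raised the melanocyte calls from 0 to 2 and lowered those of macrophages and dendritic cells from 2 to 1. Other scalings moved the median log2 fold change by at most 0.03.

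Counts that moved by over 1.5 times were these. At a minimum of 1 RPKM, 392 genes rose, 35 fell and 784 passed the adjusted p, with 1 other interferon regulatory factor, 6 type I and III targets and 5 interferon gamma targets rising. DESeq2 gave 122 falls and 2518 genes past the adjusted p, and no filter gave 107 falls. With coding length 4 of 9 places in the order of levels stayed. Leaving out single libraries gave 559 to 1183 rises, 15 to 180 falls and 639 to 2334 genes past the adjusted p, 1 to 2 other interferon regulatory factors, 1 to 3 negative regulators, 6 to 19 type I and III targets and 6 to 9 interferon gamma targets. The causes were not tested. The parts of counting error and of spread between libraries in the intervals were not separated. Irf7 rests on 93 to 380 counts per library, and the libraries held at least 53433121 gene reads.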
